A study of Homo sapiens with 14 samples.

Results

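NF-κB regions at 7 immune genes were examined in L1236, a cell line established from Hodgkin lymphoma. The genes comprised 4 cytokine genes (*CSF2*, *IL6*, *IL10* and *IL13*) and 3 interleukin receptor genes (*IL2RA*, *IL4R* and *IL21R*). Regions were chosen by annotation, as those whose closest gene or closest transcription start site (TSS) in the deposited table was among the 7. This gave 41 of 14865 regions, and the 7 genes were among 8450 with at least 1 assigned region. Chromatin immunoprecipitation with sequencing (ChIP-seq) had been carried out on L1236 cells, without a treatment named in the labels, for 4 NF-κB subunits (RelA, RelB, p50, p52), each in 2 replicates, beside 6 libraries of input DNA. The p52 replicates had been made with different antibodies. All values come from 1 cell line, each region's enrichment is from merged replicates, and no test between regions was run. The 2 replicate signal values per subunit are given to show the spread.

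NF-κB proteins bind DNA as dimers. p50 and p52, the processed products of *NFKB1* and *NFKB2*, lack a transactivation domain of their own, whereas RelA and RelB carry one. The canonical pathway mainly releases p50-RelA and the non-canonical pathway mainly p52-RelB. Hodgkin and Reed-Sternberg cells, the tumour cells of Hodgkin lymphoma, are known for constitutive NF-κB activity and for secreting cytokines that act on themselves and on surrounding immune cells. Gene expression was not analysed here, and a region's assignment to a gene is a matter of distance.

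The 41 regions held 5611 of 1654137 p50 reads over all regions, 7125 of 1810792 p52 reads, 976 of 315151 RelA reads and 1485 of 470788 RelB reads. Whether these reads were counted before or after the authors reduced the libraries to a set size is not given. Both RelB libraries had fewer mapped reads than that size, so that RelB read shares also carry a difference in depth, and ratios between subunits are read against those of all regions and not as absolute amounts. RelA and RelB regions rested on fewer reads. For RelA, unlike RelB, both replicates had more mapped reads than the set size. Every RelA library had a lower normalized strand cross-correlation, a quality measure of ChIP-seq libraries, than every p50, p52 and RelB library. The paper states that all samples passed its quality thresholds. What part this measure had in the few RelA calls was not tested. A missing RelA or RelB call says only that the region did not pass in these libraries.

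The promoters of 4 of the genes are shown because a ChIP-seq region lay at their TSS (*CSF2*, *IL2RA*, *IL4R*) or just inside the transcribed side of it (*IL6*) and the window held a match to a κB pattern. *IL21R* also had a region over its derived TSS, but its RefSeq window begins from a TSS 25097 bp inside the RefSeq gene and is not shown, so that no sequence at the covered TSS was searched. Sequences are from RefSeq (GRCh38.p14), 250 bases before to 50 after the RefSeq TSS, in the gene's own direction. Capitals mark matches to the κB consensus on either strand, and in *CSF2*, which had none, the match to the looser pattern GGGNNNNNCC.

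CSF2 chr5:132073539-132073838 plus strand: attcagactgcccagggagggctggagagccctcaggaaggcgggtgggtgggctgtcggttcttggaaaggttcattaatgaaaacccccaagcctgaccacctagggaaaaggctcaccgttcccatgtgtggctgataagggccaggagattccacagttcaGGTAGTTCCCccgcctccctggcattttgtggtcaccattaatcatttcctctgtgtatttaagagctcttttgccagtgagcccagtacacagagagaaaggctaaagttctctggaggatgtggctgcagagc
IL6 chr7:22726950-22727249 plus strand: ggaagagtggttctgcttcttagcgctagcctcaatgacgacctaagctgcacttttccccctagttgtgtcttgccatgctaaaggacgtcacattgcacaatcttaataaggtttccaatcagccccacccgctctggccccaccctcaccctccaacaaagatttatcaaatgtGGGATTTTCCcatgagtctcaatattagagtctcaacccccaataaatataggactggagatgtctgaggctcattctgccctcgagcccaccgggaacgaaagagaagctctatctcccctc
IL2RA chr10:6062318-6062617 minus strand: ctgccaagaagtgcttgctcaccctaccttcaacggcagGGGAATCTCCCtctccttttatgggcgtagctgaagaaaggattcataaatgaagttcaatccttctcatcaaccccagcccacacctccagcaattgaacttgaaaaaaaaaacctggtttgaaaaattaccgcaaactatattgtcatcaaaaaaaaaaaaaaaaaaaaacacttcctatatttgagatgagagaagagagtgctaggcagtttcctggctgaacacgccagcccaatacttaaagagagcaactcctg
IL4R chr16:27313724-27314023 plus strand: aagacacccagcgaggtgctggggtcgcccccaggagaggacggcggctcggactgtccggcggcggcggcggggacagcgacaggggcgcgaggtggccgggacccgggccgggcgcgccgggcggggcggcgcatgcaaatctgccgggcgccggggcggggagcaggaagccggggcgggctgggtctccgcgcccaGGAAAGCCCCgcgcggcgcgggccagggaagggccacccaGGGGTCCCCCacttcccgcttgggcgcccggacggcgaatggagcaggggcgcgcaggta

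In *IL6* the match GGGATTTTCC began 73 bases before the TSS. *IL2RA* held overlapping matches on opposite strands from position -211, GGGAATCTCC and GGGAGATTCC. *IL4R* held GGGGCTTTCC and GGGGGACCCC on the opposite strand, at -50 and -10, but its window is set by a RefSeq TSS 218 bp inside the RefSeq gene, so that both matches lie within the gene. The RefSeq TSS of a window was not shown to be the same base as the TSS derived from the deposited distances, and match positions and summit positions are not on 1 scale. In *CSF2*, GGGAACTACC lay on the opposite strand at -85 and met only the looser pattern. None of the RefSeq windows of *IL10* (3 windows) and *IL13* (2) held the κB consensus, nor did the internal window of *IL21R*. Of 35116 RefSeq promoter windows, 5.91% held the κB consensus and 58.7% held GGGNNNNNCC, counting both strands, and every match to the κB consensus also matches the looser pattern. A match is a run of letters and was not tested for binding. The regions below are in hg18, and the promoter coordinates were not moved between builds.

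Among the 41 regions, p52 was called in 37, p50 in 33, RelB in 11 and RelA in 1. A call is the authors' own, made from merged replicates after a comparison of the replicates. p52 was called in 90.2% of the regions (exact binomial 95% interval 76.9% to 97.3%), beside 73.3% of all regions. For p50 the share was 80.5% (65.1% to 91.2%), beside 73.8%, and for RelB 26.8% (14.2% to 42.9%), beside 26.8%. RelA was called in 2.44% (0.0617% to 12.9%), beside 3.31%. These intervals are no test, since they treat regions as independent, although 14 belong to *IL6* alone and neighbouring regions share a locus. Both p50 and p52 were called in 29 regions (70.7%, 54.5% to 83.9%), beside 51.4% of all regions.

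The calls fell into 5 combinations. p50 with p52 was the combination of 18 regions (43.9%, beside 31.8% of all regions), and p50, p52 and RelB were called together in 10 (24.4%, beside 17.1%). p52 alone was called in 8 regions (19.5%, beside 19.8%) and p50 alone in 4 (9.76%, beside 21.2%). The remaining region, at *IL21R*, carried all 4 calls, which 2.35% of all regions did. Each of the 11 RelB calls thus stood in a region called for both p50 and p52, as did 72.5% of the RelB calls in the whole table.

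Most regions lay away from a TSS. A TSS fell inside 4 of the 41 regions (9.76%, beside 16.5% of all regions), and 14 lay within 10 kb of the closest TSS (34.1%, beside 37.3%). The closest gene was touched by 15 of them (36.6%, beside 58% of all regions). The TSSs of *CSF2*, *IL2RA*, *IL4R* and *IL21R* were each inside a called region, whereas those of *IL6*, *IL10* and *IL13* were inside none of the 41.

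**Figure D1:**
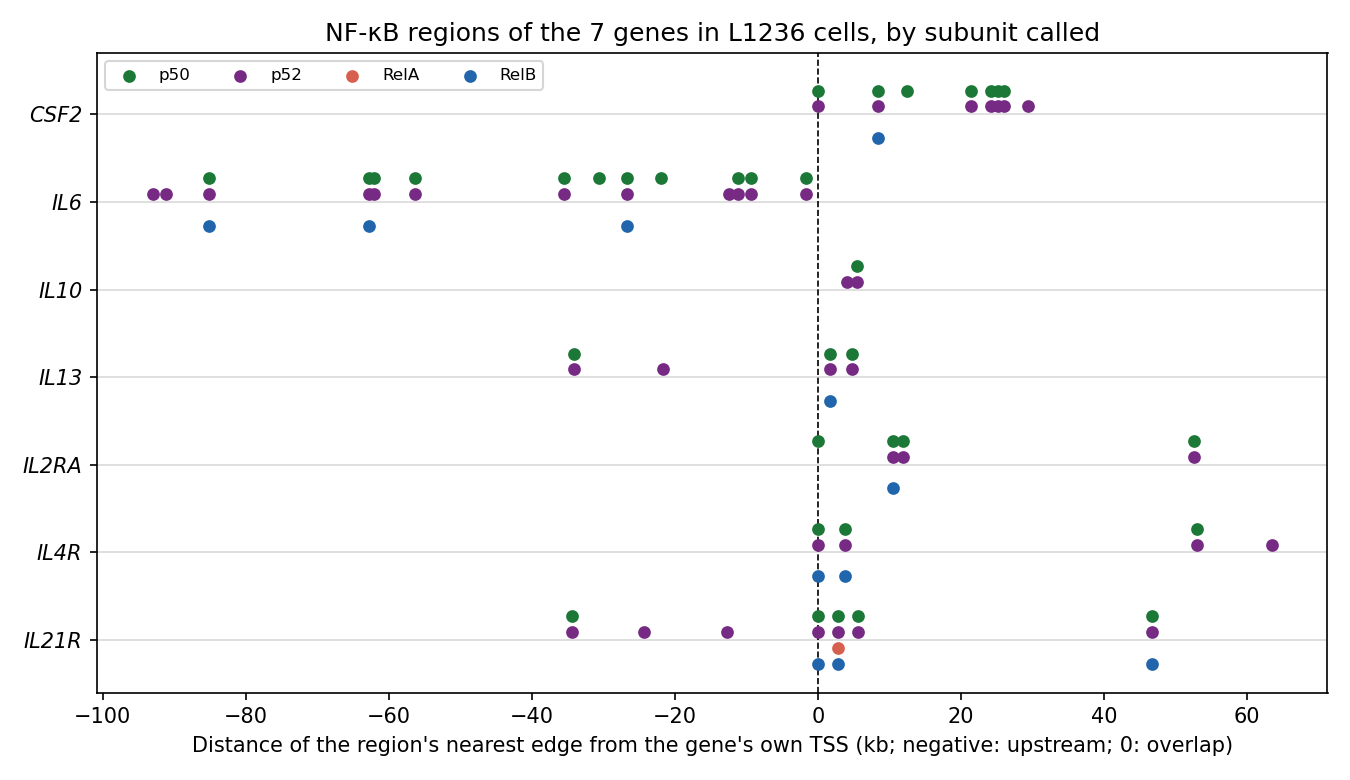
Each point is a region called for a subunit (colours), placed by the distance of its nearest edge from the TSS of the gene (kb, negative upstream, 0 for overlap). The 14 regions of *IL6* all lie upstream, those of *CSF2* lie at or downstream of the TSS, and the only RelA call is at *IL21R*; the 2 regions shared by *IL4R* and *IL21R* are drawn for both.

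The number of regions per gene ranged from 2 to 14. *IL6* had 14, *CSF2* 8, *IL21R* 7, *IL13*, *IL2RA* and *IL4R* 4 each and *IL10* 2. In comparison, the median gene in the table had 1 region, and 30 of the 8450 genes (0.355%) had 14 or more. For *CSF2* and *IL21R*, 214 (2.53%) and 316 (3.74%) genes had at least as many. The 7 genes were themselves chosen with earlier results of these data known, so that these ranks are a description.

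*CSF2* (ENSG00000164400) encodes granulocyte-macrophage colony-stimulating factor, which drives the production and activation of myeloid cells. Its 8 regions spanned 31101 bp on chromosome 5, and the plus-strand TSS derived from the deposited distances was at position 131437384. p50 was called in 7 of the regions, p52 in 7, RelB in 1 and RelA in 0. The other 7 regions lay 8429 to 29411 bp downstream of the TSS. The region over the TSS had 8 neighbouring regions within 50 kb, as many as or more than 97.7% of all regions, whose median was 1.

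The *CSF2* region with the strongest enrichment was chr5:131445813-131447318, 8429 bp downstream of the TSS. Fold enrichment there, the ratio of ChIP to input at the summit, reached 59.3 (p50), 69.8 (p52) and 20.5 (RelB). These values ranked 98 of 10975, 113 of 10893 and 332 of 3984 among all regions called for each subunit. It held 604 p50, 755 p52, 46 RelA and 147 RelB reads, and the p50 and p52 summits lay 33 bp apart. In each of the replicate signal values, p50 (2422 and 2633) and p52 (1706 and 3975) were far above the medians of all called regions, by 2.67 and 3.01 on the log2 scale for p50 and by 2.99 and 3.26 for p52. The region was therefore high in both replicates of both subunits.

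The region over the *CSF2* TSS, chr5:131436547-131443033, was the widest of the 41 at 6487 bp and reached past the 3' end of the gene at 131439758. Its p50 summit lay 85 bp and its p52 summit 89 bp upstream of the TSS. p50 reads outnumbered p52 reads, 678 against 269, a p52 share of 28.4%, and 8.98% of all regions had a ratio of p52 to p50 as low or lower. Fold enrichment was 21.0 for p50 and 13.9 for p52. The p50 replicates disagreed, with signal values of 748 and 176 that lay 0.98 above and 0.90 below the medians on the log2 scale, the widest gap among the 33 p50 regions. Those of p52 were both below, at -0.89 and -0.26. The p50 lead thus comes from merged reads of replicates that differ. With 97 RelB and 99 RelA reads it was called for neither.

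The most distant group of *CSF2* regions held 4 neighbours, 24244 to 29411 bp downstream, with p52 folds of 13.2 to 16.1 and p50 folds of 8.05 to 10.2 where called. Between the groups, a region 21476 bp downstream reached a fold of 34.5 for p50 and 26.9 for p52, and a region at 12492 bp was called for p50 alone at 9.77. The study had placed ChIP-PCR primers in the region 26058 bp downstream, chr5:131463442-131466271, and they are printed because they fix the position of a *CSF2* distal site.

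CSF2_SP3: catcttcagctggattcaacac
CSF2_RP3: aactgatacctttctgggtgac

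The listed primer positions put the amplicon at chr5:131464373-131464445, with the p50 summit 5 bp and the p52 summit 43 bp beyond its end. In this region fold enrichment was 9.62 for p50 and 16.1 for p52, well below that of the region at 8429 bp.

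*IL6* (ENSG00000136244) encodes interleukin 6, a pro-inflammatory cytokine that also supports plasma cell differentiation. Its 14 regions all lay upstream of the derived TSS at position 22732028 of chromosome 7, from 1720 to 92982 bp away, and spanned 91993 bp. They were assigned by TSS only, since the table named another gene as the closest gene for each of them. p50 was called in 11, p52 in 12, RelB in 3 and RelA in 0. The densest part of the locus had up to 12 other regions within 50 kb, a number that 99.3% of all regions did not exceed.

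Fold enrichment over input at *IL6* was moderate. p50 folds ranged from 8.93 to 18.0 with a median of 10.3, and 1 of 11 was above the 16.8 that was the median of all p50 regions. p52 folds ranged from 6.60 to 34.1 with a median of 17.2, and 6 of 12 were above the median of all p52 regions, also 17.2. In reads per kb the called regions held 102 to 183 for p50 and 105 to 286 for p52. These were above the medians of all regions, called or not (90.8 and 91.4). Uncalled regions, with medians of 47.5 and 43.9, lower that reference, whereas the folds were set against called regions. The level at *IL6* thus depended on the measure and on the reference. By fold, the strongest *IL6* region in all 3 called subunits was chr7:22646303-22646864, 85164 bp upstream, with 18.0 for p50, 34.1 for p52 and 12.1 for RelB. It held 77, 147 and 34 reads. Its RelB signal values were -1.29 and 0.84 relative to the medians on the log2 scale, while both were above the medians for p50 (0.38 and 0.14) and for p52 (1.18 and 1.72). RelB was also called 62780 bp upstream (fold 8.38, 77 reads) and 26734 bp upstream (fold 5.31, 61 reads). The region nearest to the TSS, 1720 bp upstream, held 235 p50 and 397 p52 reads with folds of 15.4 and 17.8.

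p52 reads exceeded p50 reads in 11 of the 14 *IL6* regions, and in the same 11 the log2 ratio was above the median of all regions. The p52 share of p50 and p52 reads over the locus was 62.8% (exact binomial 95% interval 61.2% to 64.4%). The 3 regions with more p50 reads were those at 56262, 30567 and 21870 bp upstream, with p52 shares of 43.5%, 34.6% and 29.7%, and p50 alone was called in the last 2 of them. These 3 regions lay in the middle of the stretch, with p52-rich regions on either side of each. Their p50 folds, 10.3, 8.93 and 14.2, were below the median of all p50 regions. Their p50 reads per kb, 137, 183 and 135, were above the median of 90.8 over all regions, called or not. The p50 signal values of the region 30567 bp upstream were 0.07 and -1.37 relative to the medians on the log2 scale.

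A further region, chr7:22732369-22734872, began 341 bp downstream of the derived *IL6* TSS but was outside the rule, because the table assigned it to another gene by both measures. It was called for p50 (fold 12.8, 272 reads) and p52 (fold 13.9, 193 reads), with summits 1119 bp apart, 2364 and 1245 bp downstream of the derived TSS. It is kept out of all counts here.

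*IL10* (ENSG00000136634) encodes an anti-inflammatory cytokine and had the fewest regions. chr1:205006130-205006932, 5530 bp downstream of the minus-strand TSS at position 205012462, was called for p50 (fold 14.5, 52 reads) and p52 (fold 22.3, 84 reads). Its p52 signal values were -0.82 and 0.74 relative to the medians on the log2 scale. chr1:205007894-205008333, 4129 bp downstream, was called for p52 alone (fold 11.5, 38 reads). RelB reads numbered 6 and 2 and RelA reads 11 and 8. RelB reads over p50 and p52 reads were low in both, at or above the values of 9.32% and 11.4% of all regions.

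*IL13* (ENSG00000169194) encodes a type 2 helper cytokine that Hodgkin and Reed-Sternberg cells are known to use as an autocrine growth factor. Of its 4 regions, p52 was called in 4, p50 in 3 and RelB in 1. The region nearest to the TSS, chr5:132023417-132023889 at 1653 bp downstream, was the *IL13* region with RelB, at a fold of 9.37 with 35 reads beside 64 p50 and 53 p52 reads. Its ratio of RelB to p50 and p52 reads was at the 93.6th percentile of all regions. The next region, chr5:132026491-132028429 at 4727 bp, was the strongest of the gene, with folds of 26.3 for p50 and 32.0 for p52 and with 349 and 504 reads, but with 27 RelB reads, at the 3.29th percentile of the same ratio. In merged reads these neighbours, of which the first touched *IL13* and the second lay 1791 bp outside it, thus lay near opposite ends of the RelB range. The high end is uncertain, since the RelB signal values of the first region, 365 and 169, were 1.14 above and 0.83 below the medians of RelB regions on the log2 scale. In the second, the p50 and p52 summits were 764 bp apart, the widest gap among the 29 regions called for both subunits. The upstream *IL13* regions, 34157 and 21673 bp from the TSS, had p52 folds of 21.4 and 9.56, and p50 was called in the former at 10.1. Both touched another gene, which was their closest gene, and were assigned to *IL13* by TSS only.

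*IL2RA* (ENSG00000134460) encodes CD25, the alpha chain of the high-affinity interleukin 2 receptor. All 4 of its regions touched the gene, which lies on the minus strand of chromosome 10 with its TSS at 6144278. p50 was called in 4, p52 in 3, RelB in 1 and RelA in 0. The strongest region of the gene was chr10:6132498-6133762, 10516 bp downstream of the TSS, with folds of 53.9 for p50, 71.4 for p52 and 16.0 for RelB and with 272, 336 and 67 reads. Its p52 fold was the highest of the 41 regions and ranked 101 of 10893. The log2 values relative to the medians of all called regions were 2.39 and 2.15 for p50 and 2.36 and 2.80 for p52, but 0.28 and 1.61 for RelB, so the replicates were close for p50 and p52 and apart for RelB. The primers the study placed there are printed for the position of this site.

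IL2RA_SP3: gctgcatgcgtgacatctcg
IL2RA_RP3: aggaccggaagcagagacca

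Their listed positions span chr10:6133140-6133254. The p50 and p52 summits, 28 bp apart, were inside this amplicon, and the RelB summit was 33 bp outside it.

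At the *IL2RA* TSS, chr10:6143903-6144748 was called for p50 alone. It held 81 p50 and 24 p52 reads, a p52 share of 22.9% (15.2% to 32.1%), with a p50 fold of 24.5 and the summit 264 bp upstream of the derived TSS. A ratio of p52 to p50 reads as low or lower was found in 3.61% of all regions. The p50 signal values, 672 and 249, lay on both sides of the medians, at 0.82 and -0.39 on the log2 scale. The region 52572 bp downstream within the gene went the other way, with 52 p50 and 109 p52 reads, a p52 share of 67.7% and folds of 15.0 and 33.1. Its closest TSS was that of another gene, 30535 bp away. The last region, 11912 bp downstream, had folds of 8.05 and 17.9.

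*IL4R* (ENSG00000077238) encodes the alpha chain shared by the receptors for interleukin 4 and interleukin 13. Of its 4 regions p52 was called in 4, p50 in 3 and RelB in 2. In the region over its TSS, chr16:27232349-27233673, RelB had the highest fold of the subunits, 24.3, beside 19.8 for p50 and 17.7 for p52. In the other 10 regions with a RelB call, the RelB fold was below both the p50 and the p52 fold. It held 164 p50, 144 p52, 139 RelB and 30 RelA reads, and the ratio of RelB to p50 and p52 reads was at the 96.3th percentile of all regions. Both RelB signal values were high, 2.80 and 2.31 above the median on the log2 scale, while those of p50 were -0.10 and 0.46 and those of p52 -0.86 and 0.28. The p50, p52 and RelB summits lay 13 bp upstream, 1 bp downstream and 15 bp upstream of the derived TSS at 27232752.

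The second *IL4R* region, 3821 bp downstream, had the order of most regions instead, with folds of 29.4 for p50, 30.9 for p52 and 6.07 for RelB. The other two, 53011 and 63441 bp downstream, had *IL4R* as the closest gene and the *IL21R* TSS as the closest TSS. They were called for p50 and p52 (folds 14.9 and 17.2) and for p52 alone (fold 7.53).

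*IL21R* (ENSG00000103522) encodes the receptor for interleukin 21, a cytokine of T helper cells that acts on B cells. It had 7 regions, with p52 called in 7, p50 in 5, RelB in 3 and RelA in 1. chr16:27324059-27325932, 2835 bp downstream of the TSS at 27321224, was the only region of the 41 with a RelA call. RelA had a fold of 10.3 there, which ranked 39 of the 492 RelA regions of the table, beside 37.9 for p50, 45.1 for p52 and 18.7 for RelB. Reads numbered 295 for p50, 410 for p52, 71 for RelA and 121 for RelB, and the RelA summit was 8 bp from that of p50 and 2 bp from that of RelB. The 2 RelA signal values, 224 and 101, were both above the medians of RelA regions, by 1.25 and 0.62 on the log2 scale.

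The strongest p50 and p52 region of *IL21R* was the most distant, chr16:27368015-27370147 at 46791 bp downstream, with folds of 41.5 for p50, 68.2 for p52 and 17.9 for RelB and with 259, 427 and 89 reads. Its p50 and p52 summits were at the same base. Its p52 signal values were 1.47 and 3.05 above the medians on the log2 scale, the widest gap among the 37 p52 regions. Those of RelB were 0.85 and 1.96 above, and those of p50 1.95 and 1.90. The region over the TSS, chr16:27320049-27322809, was weaker, with folds of 11.3 for p50, 18.3 for p52 and 5.96 for RelB, and its summits lay 1067 to 1091 bp downstream of the TSS. Its RelB signal values were 0.19 and -1.58 relative to the medians, and those of p52 -0.14 and 0.74. The region 5578 bp downstream was called for p50 (fold 15.3) and p52 (13.9). Upstream, *IL21R* alone accounted for a region at 12758 bp that was called for p52 only (fold 8.55).

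Across all called regions of the 7 genes, the median fold enrichment was 14.9 for p50 (33 regions, 8.05 to 59.3), beside 16.8 in all p50 regions, and 17.7 for p52 (37 regions, 6.60 to 71.4), beside 17.2. For RelB it was 12.1 (11 regions, 5.31 to 24.3), beside 9.08. Above the median of all called regions were 11 of 33 p50 regions, 19 of 37 p52 regions and 7 of 11 RelB regions. The p50 median was below that of all regions in fold but 0.07 and 0.17 above it, on the log2 scale, in pileup and in reads per kb, so that its direction depended on the measure. The regions of the receptor genes had higher medians than those of the cytokine genes, 19.8 (11 regions) and 10.9 (22 regions) for p50, 18.1 (12) and 16.1 (25) for p52 and 16.9 (6) and 9.37 (5) for RelB. In reads per kb over the same called regions the order was the reverse, with medians of 108 for the receptor and 123 for the cytokine genes (p50), 116 and 141 (p52) and 47.3 and 60.5 (RelB), so that it depended on the measure. The ranges of fold enrichment overlapped widely, with the cytokine regions reaching 59.3, 69.8 and 20.5 at *CSF2*.

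**Figure D2:**
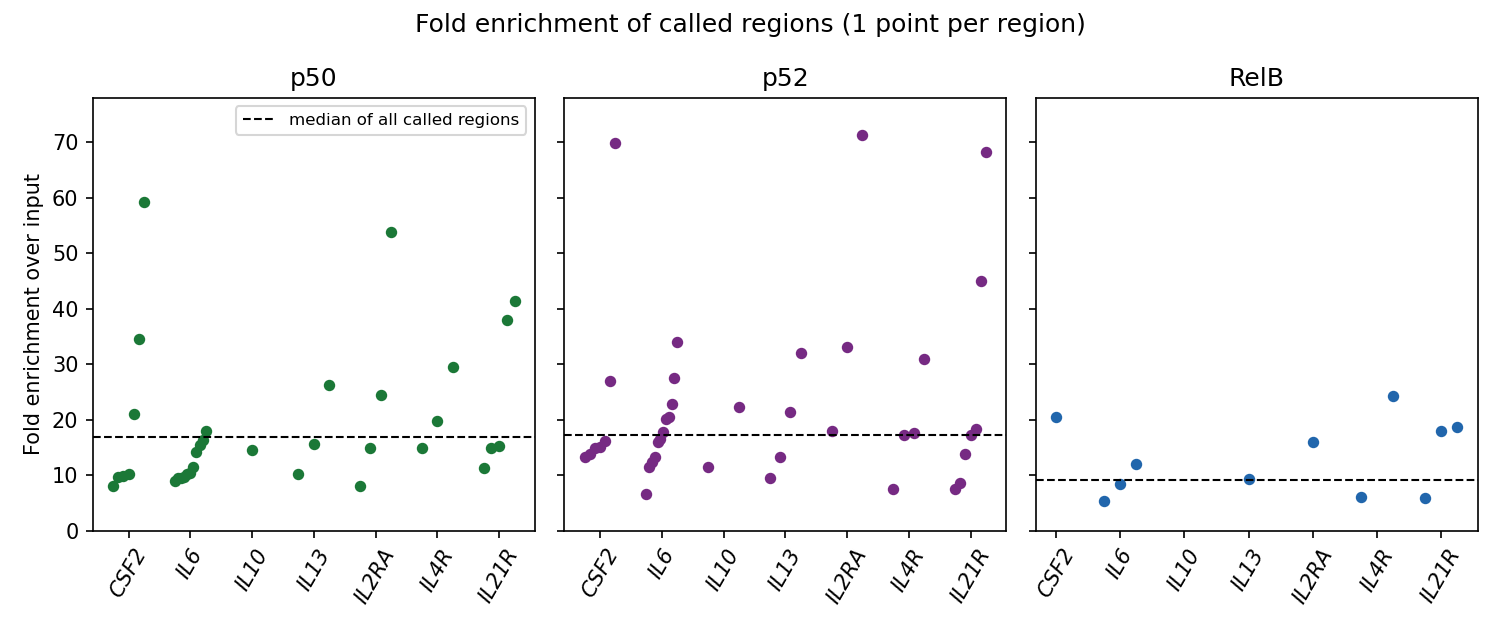
Fold enrichment over input (linear axis) of every region called for p50, p52 or RelB, by gene, with a dashed line at the median of all regions called for that subunit. A few regions stand high, among them *CSF2* at 59.3 (p50) and 69.8 (p52), *IL2RA* at 53.9 and 71.4 and *IL21R* at 41.5 and 68.2, while 1 of 11 *IL6* points lies above the p50 line. In reads per kb, not drawn, the called *IL6* p50 regions held 102 to 183, above the median of 90.8 over all regions, called or not. Unlike the dashed line, that median is not of called regions only.

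The replicate signal values gave the spread behind these levels. Relative to the median of all called regions, the median of the 33 p50 regions was -0.40 on the log2 scale in 1 signal value and -0.0039 in the other. For p52 it was 0.26 and 0.28 (37 regions) and for RelB 0.28 and 0.84 (11 regions). Within a region, the values differed by a median of 0.41 for p50, 0.44 for p52 and 0.95 for RelB, close to the 0.51, 0.47 and 0.87 of all called regions. Both values were above the median in 10 of 33 p50 regions, 17 of 37 p52 regions and 5 of 11 RelB regions, beside 39.2%, 40.5% and 33.1% of all called regions. Of these 3 subunits, the spread between values was widest for RelB.

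**Figure D3:**
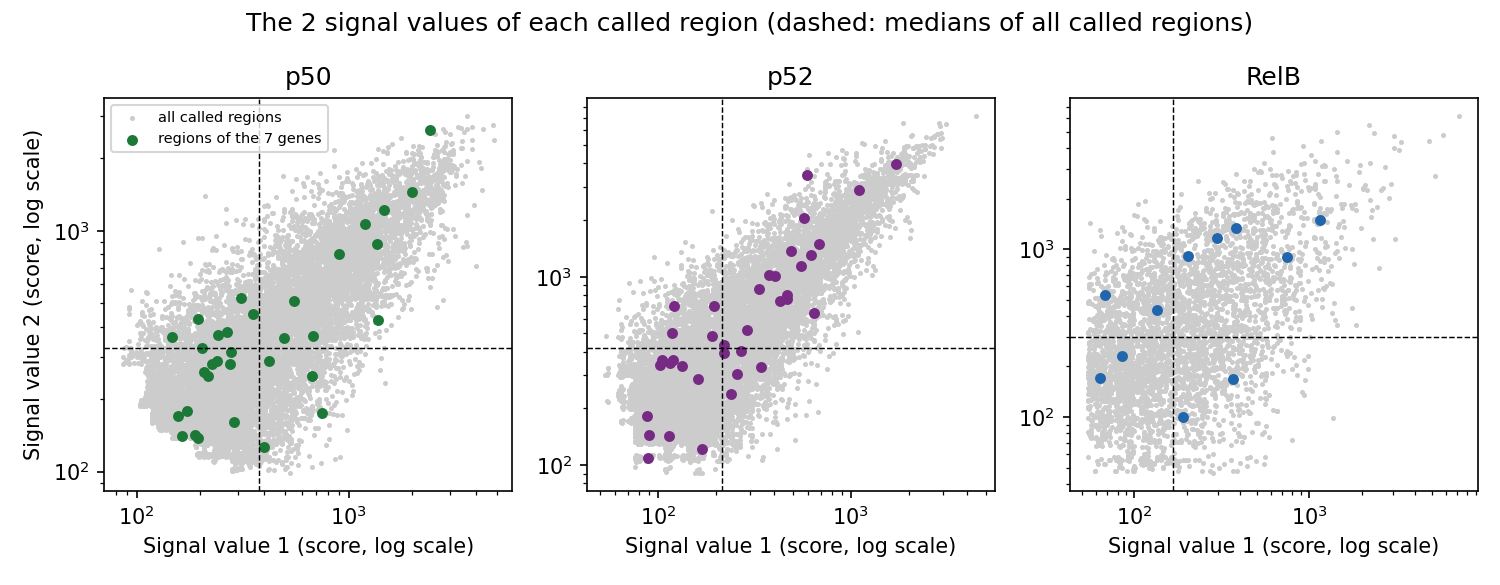
The 2 signal values of every region called for p50, p52 or RelB (log axes, a score without a named unit), with the regions of the 7 genes in colour and dashed lines at the medians of all called regions. Of the coloured points, 10 of 33, 17 of 37 and 5 of 11 lie above both lines.

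p52 reads were more numerous than p50 reads in much of the set. The median log2 ratio of p52 to p50 reads (with 1 read added to each) was 0.54 in the 41 regions and 0.10 in all regions, a difference of 0.44, and 30 of 41 regions were above the median of all regions. The 4 regions over a TSS were all below it, with a median of -0.76, and the other 37 had a median of 0.68. The same split was present in the whole table, with a median of -0.86 in the 2447 regions over a TSS and 0.30 in the 12418 others. The antibodies differ between p50 and p52 and between the p52 replicates, and their part in the ratio was not tested, so it compares regions and not amounts of protein.

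**Figure D4:**
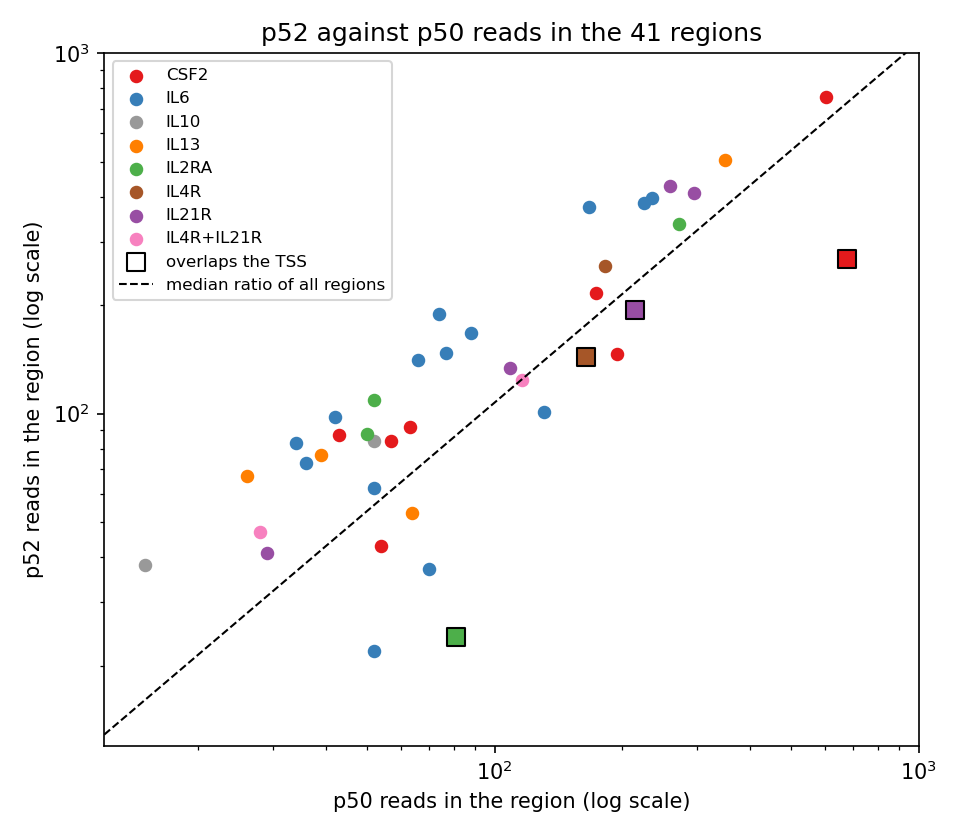
Reads of p52 against reads of p50 in each of the 41 regions (log axes), coloured by gene, with squares for regions that overlap a TSS and a dashed line at the median ratio of all regions. The 4 squares lie below the line and 30 of the 41 regions lie above it.

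By gene, the p52 share of p50 and p52 reads was highest at *IL10* (64.6%, exact 95% interval 57.3% to 71.4%) and *IL6* (62.8%, 61.2% to 64.4%). It was 59.5% at *IL13* (56.6% to 62.3%), 56.7% at *IL21R* (54.7% to 58.7%), 55.0% at *IL2RA* (51.9% to 58.1%) and 53.8% at *IL4R* (50.8% to 56.8%). *CSF2* was lowest at 47.6% (45.9% to 49.2%). The intervals, which cover counting error only, overlapped between all neighbours in this order except *IL4R* and *CSF2*. Without the regions over a TSS, *CSF2* had 54.5% (52.6% to 56.4%) and was still the lowest, next to *IL4R* at 56.7% (53.1% to 60.3%), *IL21R* at 58.6% and *IL2RA* at 58.8%, and the intervals of *CSF2* and *IL4R* then overlapped. Over all regions of the table, those over a TSS included, the share was 52.3%, which compares with the shares that keep the TSS regions.

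RelB reads, as a share of the reads of the 4 subunits, were highest at *IL4R* (16.8%) and *IL21R* (12.1%), beside 11.1% over all regions. Without its TSS region *IL4R* had 10.3%, below *IL21R* treated alike (12.0%), so that the high share at *IL4R* rested on that region. The shares with all regions were 9.79% at *IL2RA*, 9.05% at *IL6*, 8.63% at *CSF2*, 5.57% at *IL13* and 3.70% at *IL10*. The median log2 ratio of RelB to p50 and p52 reads was 0.84 above that of all regions at *IL4R* and 0.54 above it at *IL21R*, and below it at the other 5 genes. At *IL4R* this median fell between the 2 regions shared with *IL21R*, neither called for RelB (0.58 and 1.10 above that of all regions). The *IL4R* regions not shared were at 1.96 (over the TSS) and -0.55 (3821 bp downstream) relative to all regions. RelA reads made up 4.81% to 8.80% at the 7 genes, beside 7.41% over all regions.

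**Figure D5:**
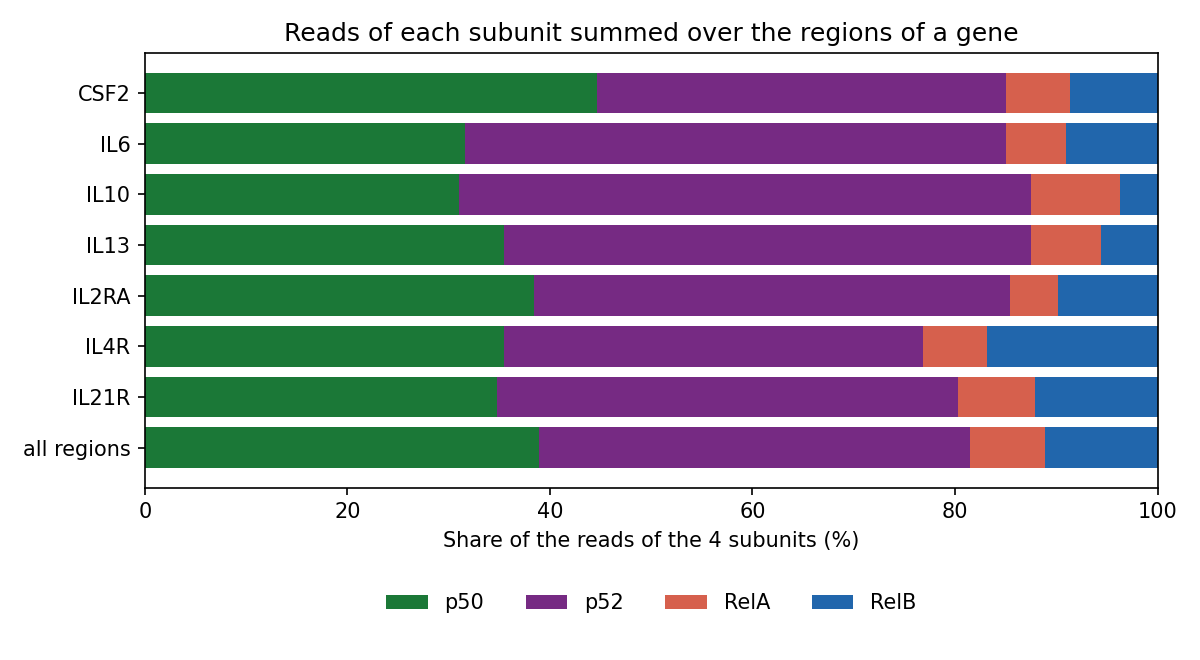
Stacked bars of the percentage of p50, p52, RelA and RelB reads summed over the regions of each gene, with all 14865 regions in the lowest bar. RelB takes 16.8% at *IL4R* and 3.70% at *IL10*, and p50 takes the largest share only at *CSF2* (44.6%).

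Regions without a call also held RelA and RelB reads. The 40 regions without a RelA call had a median of 21.0 RelA reads per kb, beside 15.3 in all regions without one, and the highest, *IL6* at 62780 bp upstream, had 35.1, against 37.9 in the region with the call. For RelB, the *IL6* region 9312 bp upstream had 63.5 reads per kb without a call, more than the 58.7 that was the median of the 11 regions with one. The absence of a call in these regions is therefore not an absence of reads. Reads per kb were not set against input, so these values compare reads and not enrichment.

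Summits of different subunits were close together. The p50 and p52 summits were a median of 13 bp apart in 29 regions (0 to 764 bp), beside 11 bp in all regions called for both, and 27 of the 29 were within 50 bp, beside 88.1%. p52 and RelB summits were a median of 17 bp apart (11 regions, 5 to 35 bp), beside 19 bp.

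The gene whose read shares were most like those of each gene was sought among 390 named genes with at least 3 regions, by the sum of absolute differences in the 4 shares. The nearest were *BCL11B* for *CSF2* (1.75 percentage points), *ARHGAP24* for *IL6* (1.50), *PIK3R1* second for *IL13* (2.86), *ZBTB32* and *B2M* for *IL2RA* (2.11 and 2.56), *APOBEC3B* and *KLHL6* for *IL4R* (3.93 and 4.60) and *AHCYL2* and *AEBP2* for *IL21R* (0.51 and 1.36). The remaining second or first places were taken by *AC037487.12-2* for *CSF2* (2.10), *AK3L1* for *IL6* (1.84) and *AC051635.7-1* for *IL13* (2.26). The median over the named genes was 12.6 to 18.7, and *IL10*, with 2 regions, was left out. Shares of 4 subunits in 1 cell line are few points, and the likeness is a description.

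Of 69 other cytokine and interleukin receptor genes listed for comparison, 5 could be matched by name, and the others were not analysed here. *IL7*, a growth factor of lymphocytes, had 3 regions, with p52 called in 3, p50 in 2 and RelB in 2, and its highest folds were 42.6 for p50, 58.9 for p52 and 24.2 for RelB. *CSF1*, the macrophage growth factor, had 3 regions (p50 in 3, p52 in 2, RelB in 1) with folds up to 43.3 and 44.0. *EBI3*, a subunit of interleukin 27 and interleukin 35, had 2 regions (p50 in 2, p52 in 1, RelB in 1), up to 38.0 and 42.5. *IL2RG*, the common gamma chain, had 1 region, called for p50, p52 and RelB. *IL12RB1*, a chain of the interleukin 12 receptor, had 2 regions (p50 in 2, p52 in 1, RelB in 1) and the only RelA call of the 5, in 1 region.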

How the data were processed

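ChIP-seq libraries of p50, p52, RelA and RelB (2 replicates each) and 6 input libraries were summarised by the authors in 1 table of 14865 regions. They mapped reads to hg18 with Bowtie (versions are not given in the sources used here), removed duplicates, reduced libraries to 10000000 reads, called peaks with MACS on merged replicates and filtered them at 0.05 by irreproducible discovery rate (IDR) and FDR. The deposited read counts are whole reads per region from merged replicates, not normalized. The sources used here do not say if counting preceded the reduction of the libraries, and both RelB libraries were smaller than the set size. As deposited, fold enrichment is a ratio to input and the IDR is a fraction. The FDR deposited with them is a q-value, and pileup, also deposited, is coverage at the summit. The 2 deposited signal values per subunit are a score of unnamed scale, 1 for each replicate, and which belongs to which replicate or p52 antibody was not given in the table. Assignments and distances, which are negative upstream, are the authors', from Ensembl version 54 within 1 Mb.

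Members and lists were chosen with earlier results of these data known. TSS positions and strands were derived as the only ones that give every deposited distance of a gene. Symbols came from the study's own tables, for 1133 of 8450 gene identifiers. Regions were named by a fixed rule: each gene's strongest region per called subunit, the region closest to its TSS and any RelA region, with further regions given by distance. Intervals are exact binomial (Clopper-Pearson, 95%) and cover counting error only. Percentiles are shares of all regions at or below a value. Log ratios had 1 read added. Enrichment and reads were available for merged replicates, and no test was run. The signal values of the replicates describe the spread. Functions were tested on simulated data. Python, pandas and scipy were used.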

Additional observations from a re-analysis of the deposited data

Results flagged for a closer look

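The region that begins 341 bp downstream of the derived *IL6* TSS was outside the rule, because the deposited table assigned it to another gene, and it was given a closer look because it held signal in data that no count of the report uses. It was called for p50 at a fold enrichment of 12.8 and for p52 at 13.9, and it held 272 p50, 193 p52, 50 RelA and 42 RelB reads. Its p50 fold was at the 27.7th percentile of all p50 regions. Input reads are not in the table, so the fold over input is the control. With this region *IL6* would have 15 regions.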

How the results depend on the processing

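No paired analysis was possible because the enrichment values come from merged replicates and the 2 numbered signal values of a subunit are not linked to a library or antibody, so that equal numbers do not pair subunits. With closest gene alone in place of closest gene or TSS, the regions fell from 41 to 25, those called for p50 from 33 to 21 and those for p52 from 37 to 23, since all 14 *IL6* regions and 2 of *IL13* are then left out, and the log2 ratio of the RelB median fold to that of all regions rose from 0.41 to 0.90. For p50 this ratio was -0.18 and turned to 0.074 with pileup and 0.17 with reads per kb, and for RelA (1 region) it went from 0.73 to -0.021 with reads per kb. The cause was not tested. For p52 it was 0.04, and 0.15 with pileup, 0.085 with reads per kb and 0.017 with closest TSS only. Taking each signal value alone gave 0.26 and 0.28 for p52 in place of 0.14, which is the median of the regions' means, and 0.28 and 0.84 for RelB in place of 0.16. The 14 regions within 10 kb of a TSS became 4 within 1 kb and 35 within 50 kb. Every listed IDR was below 0.01, so that planned limit removed nothing. Limits of IDR below 0.001 and adding regions within 1 kb of a TSS (42 regions) were chosen after seeing the data, as was leaving out regions over a TSS, and the first left 26 p50, 32 p52, 8 RelB and 1 RelA region. RelA and RelB rested on fewer reads than p50 and p52.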
